A study of Mus musculus with 4 samples.

Results

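The replication-dependent histone genes were defined as the protein-coding genes of the mm10 GENCODE annotation (release M21) whose symbols begin with Hist1h, Hist2h, Hist3h or Hist4h. The rule gave 67 genes of the 21755 protein-coding genes on the 20 chromosomes that both peak lists cover. The HIST1 cluster on chromosome 13 held 54 of them, the HIST2 cluster on chromosome 3 held 10, the HIST3 cluster on chromosome 11 held 2 and HIST4 on chromosome 6 held 1. By the histone they encode, 6 were H1 genes, 18 H2A, 18 H2B, 12 H3 and 13 H4.

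Replication-dependent histone genes supply the core histones and the linker histone H1 that package newly copied DNA, and most of their transcription falls in S phase. The genes lie in clusters, many as H2A and H2B genes that start from one shared spacer in opposite directions, and they have no introns in their usual form. Their mRNAs end in a conserved stem-loop, bound by SLBP, in place of a poly(A) tail.

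RBPJ binding was measured in alveolar macrophages (AMs), which live in the airspaces of the lung. The assay was HT-ChIPmentation, a chromatin immunoprecipitation in which a transposase inserts the sequencing adapters while the chromatin is still on the beads. RBPJ binds DNA and passes Notch signals on to target genes. The cells came from bronchoalveolar lavage of 9-week-old WT C57BL/6J mice and were sorted by flow cytometry. The series held 4 samples, 2 RBPJ libraries and 2 Input libraries, and each RBPJ library had its own peak list called against input, with no mutant, treated or unstimulated group beside it. The labels do not say whether the libraries came from separate animals.

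Replicate 1 gave 106228 peaks and replicate 2 gave 47224, with a median fold enrichment of 4.06 and 4.35. Fold enrichment is the peak caller's ratio of the signal at a peak's summit, its highest point, to the local background. The peak lists hold no read counts and library depth was not used here, so a gene without a peak is one at which no peak was called. The AM label was checked on promoters, in a window of 1 kb either side of a start site. Of 10 AM marker genes, 9 had a peak of each library, among them Pparg, Chil3 and Ear2. The share over all protein-coding genes was 35.8%. In replicate 1 the summit nearest to the Chil3 start site lay more than 1 kb upstream, so that peak only reached into the window. A peak of either library stood at 0 of 4 T and B cell markers. It stood at 0 of 3 type II cell markers and 0 of 3 neutrophil markers.

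The histone label was checked on the mRNA end. A stem-loop with 6 paired bases, opening with GG and closing with CC around a 4-base loop that starts with TT, lay within 200 bases of the transcript end or stop codon in 63 of 67 genes. The search missed Hist1h2an, Hist1h3g, Hist1h4a and Hist2h2be. The commonest forms in the GRCm38 sequence are printed here because they separate the H4 genes from the other types, with the stem in capitals.
H1, H2A, H2B and H3 form: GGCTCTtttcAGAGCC
H1, H2A, H2B and H3 form, other loop: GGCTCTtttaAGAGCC
H4 form: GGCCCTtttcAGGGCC
The first form stood in 41 genes, 0 of them H4, the second in 9 genes, again 0 of them H4, and the third in 8 genes, 8 of them H4.

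Promoters with peaks of each library, chosen to cover H2A-H2B spacers and H4, H3 and H1 genes, and 2 spacers without a peak are shown next so that the sequence under the summits can be read. All are GRCm38 sequence on the strand named, 5′ to 3′. Capitals mark matches on either strand to the CCAAT box (CCAAT or ATTGG), the TATA box (TATAAA or TTTATA), the octamer (ATTTGCAT or ATGCAAAT), the RBPJ core (TGGGAA or TTCCCA) and GGTCC (or GGACC), which lies in the site that HINFP is known to bind in H4 promoters. The first 3 are the spacers between the start sites (TSSs) of an H2A and an H2B gene, and the next 4 run from 250 bases before to 50 after the TSS of an H4, another H4, an H3 and an H1 gene.
Hist1h2ae/Hist1h2bg (chr13:23571220-23571396, plus strand): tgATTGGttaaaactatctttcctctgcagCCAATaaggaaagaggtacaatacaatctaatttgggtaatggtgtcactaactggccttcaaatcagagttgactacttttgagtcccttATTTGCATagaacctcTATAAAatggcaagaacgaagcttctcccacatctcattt
Hist1h2bf/Hist1h2ad (chr13:23574196-23574381, plus strand): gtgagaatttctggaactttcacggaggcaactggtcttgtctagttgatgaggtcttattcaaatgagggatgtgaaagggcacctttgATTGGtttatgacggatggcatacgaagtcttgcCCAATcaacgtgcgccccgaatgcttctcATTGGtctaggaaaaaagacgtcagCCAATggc
Hist1h2ak/Hist1h2bn (chr13:21753827-21754123, plus strand): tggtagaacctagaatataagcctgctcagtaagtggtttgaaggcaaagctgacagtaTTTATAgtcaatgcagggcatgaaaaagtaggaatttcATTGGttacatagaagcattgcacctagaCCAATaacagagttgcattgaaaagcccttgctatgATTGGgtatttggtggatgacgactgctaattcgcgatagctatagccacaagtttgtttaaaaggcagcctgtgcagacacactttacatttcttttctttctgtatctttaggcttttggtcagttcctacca
Hist1h4h (chr13:23530800-23531099, plus strand): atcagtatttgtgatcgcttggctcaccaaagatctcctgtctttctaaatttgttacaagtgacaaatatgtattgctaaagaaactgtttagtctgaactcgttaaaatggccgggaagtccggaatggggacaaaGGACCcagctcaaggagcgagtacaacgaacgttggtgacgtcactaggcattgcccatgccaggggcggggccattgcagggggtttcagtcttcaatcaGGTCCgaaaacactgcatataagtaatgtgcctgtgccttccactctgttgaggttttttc
Hist1h4c (chr13:23698405-23698704, minus strand): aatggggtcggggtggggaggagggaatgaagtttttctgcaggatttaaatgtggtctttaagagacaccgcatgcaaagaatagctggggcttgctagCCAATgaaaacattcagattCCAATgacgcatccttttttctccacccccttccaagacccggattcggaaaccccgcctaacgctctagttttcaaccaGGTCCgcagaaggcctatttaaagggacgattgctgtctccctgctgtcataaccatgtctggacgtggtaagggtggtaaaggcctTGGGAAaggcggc
Hist1h3e (chr13:23562320-23562619, minus strand): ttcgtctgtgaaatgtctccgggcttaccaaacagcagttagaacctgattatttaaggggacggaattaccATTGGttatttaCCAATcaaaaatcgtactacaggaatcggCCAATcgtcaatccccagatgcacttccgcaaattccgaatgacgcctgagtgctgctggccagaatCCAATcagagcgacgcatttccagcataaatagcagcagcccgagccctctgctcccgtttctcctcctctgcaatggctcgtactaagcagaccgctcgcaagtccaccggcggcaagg
Hist1h1c (chr13:23738558-23738857, plus strand): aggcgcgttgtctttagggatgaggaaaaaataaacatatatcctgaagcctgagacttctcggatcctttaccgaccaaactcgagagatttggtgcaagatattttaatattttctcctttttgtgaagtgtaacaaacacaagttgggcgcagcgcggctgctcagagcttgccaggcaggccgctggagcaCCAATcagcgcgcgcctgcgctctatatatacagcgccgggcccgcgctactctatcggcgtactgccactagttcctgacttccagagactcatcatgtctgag
The 2 spacers without a peak follow, the first being the central 300 bases of its spacer.
Hist1h2ba/Hist1h2aa (chr13:23934159-23934458, plus strand): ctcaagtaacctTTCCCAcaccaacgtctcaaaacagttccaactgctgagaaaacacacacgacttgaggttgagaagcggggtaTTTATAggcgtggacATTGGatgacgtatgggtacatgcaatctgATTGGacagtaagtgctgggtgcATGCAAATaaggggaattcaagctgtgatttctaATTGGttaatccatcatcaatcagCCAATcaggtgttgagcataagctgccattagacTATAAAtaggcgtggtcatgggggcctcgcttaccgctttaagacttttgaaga
Hist1h2bq/Hist1h2ao (chr13:21810197-21810465, plus strand): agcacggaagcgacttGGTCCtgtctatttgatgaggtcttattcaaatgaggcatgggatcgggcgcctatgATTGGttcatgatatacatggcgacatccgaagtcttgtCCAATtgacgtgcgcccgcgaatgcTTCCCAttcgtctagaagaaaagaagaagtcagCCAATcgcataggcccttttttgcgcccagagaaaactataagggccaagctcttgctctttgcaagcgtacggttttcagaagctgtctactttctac

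Every printed promoter except that of Hist1h4h held at least 1 CCAAT box. In the Hist1h2bf/Hist1h2ad spacer the summits lay at base 95 in replicate 1 and base 87 in replicate 2, and the nearest CCAAT match begins at base 91. In the Hist1h2ak/Hist1h2bn spacer they lay at bases 92 and 95, and a match begins at base 98. The summits of these 2 spacers stood at or within a few bases of a CCAAT box, and other summits did not. In the Hist1h2ae/Hist1h2bg spacer the replicate 2 summit lay at base 82, with CCAAT matches at bases 3 and 31. At Hist1h3e it lay at base 153, between matches at bases 114 and 181, and at Hist1h1c the replicate 1 summit lay at base 143, with the match at base 196. The summits at Hist1h4c fell at bases 197 and 223, around the GGTCC at base 201. At Hist1h4h they fell at bases 182 and 263, on either side of the GGTCC at base 240. The printed spacers without a peak also held CCAAT boxes. Between Hist1h2ba and Hist1h2aa stood 4 CCAAT matches, 1 octamer and 1 RBPJ core, and between Hist1h2bq and Hist1h2ao 3 CCAAT matches and 1 RBPJ core. The printed spacers with a peak held 0 RBPJ cores. Of the spacers not printed, Hist1h2ag/Hist1h2bj and Hist1h2ac/Hist1h2bc had peaks and 1 RBPJ core each, and Hist1h2ap/Hist1h2br had 1 without a peak. In the windows of Hist1h2bq and Hist1h2ao 0% of read-length stretches occur once in the genome. The lack of a peak there thus says nothing about the boxes.

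Most histone genes had RBPJ peaks at their promoters in both libraries. A promoter peak here is one that overlaps 1 kb either side of any TSS of the gene's basic transcripts. In replicate 1, 60 of 67 histone genes (89.6%) had a promoter peak, against 46.1% of all protein-coding genes. In replicate 2, 54 of 67 (80.6%) had one, against 37.5%. A peak of each library stood at 54 histone genes (80.6%), against 35.8% of all protein-coding genes. Another 6 histone genes had a peak of replicate 1 alone, where the share over all genes was 10.3%, 0 had a peak of replicate 2 alone, where it was 1.7%, and 7 had no peak, where it was 52.2%. Neighbouring histone genes share windows, so these counts are not of independent promoters: the strongest peaks of the 54 genes were 39 different peaks in replicate 1 and 37 in replicate 2.

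Every histone type and every cluster was represented. A peak of each library stood at 4 of 6 H1 genes, 15 of 18 H2A genes, 14 of 18 H2B genes, 10 of 12 H3 genes and 11 of 13 H4 genes. By cluster the counts were 44 of 54 in HIST1, 8 of 10 in HIST2, 1 of 2 in HIST3 and 1 of 1 in HIST4. The 9 H3 genes of HIST1 had a peak of each library without exception.

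**Figure D1:**
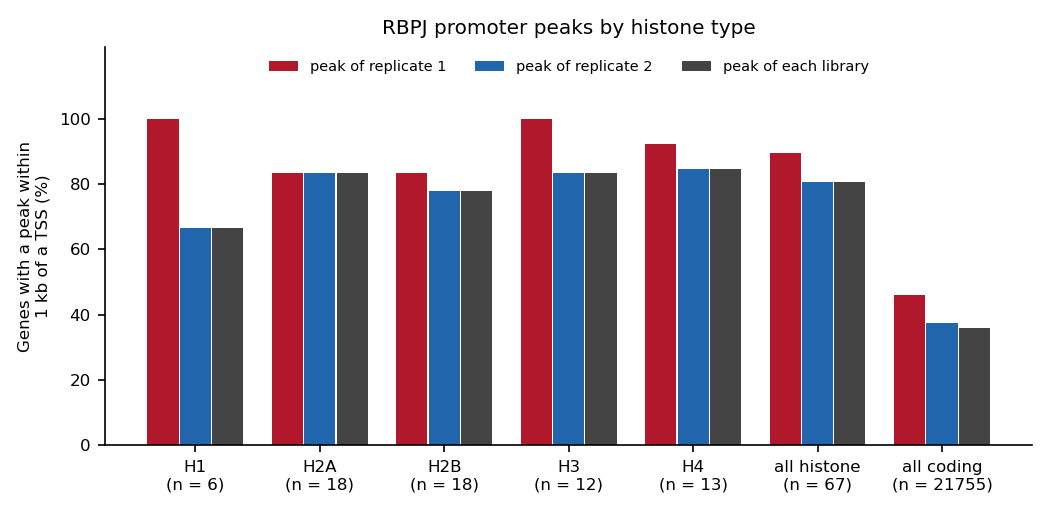
Share of genes (%) with an RBPJ peak within 1 kb of a TSS, by histone type, for all 67 histone genes and for all 21755 protein-coding genes. Red bars are replicate 1, blue bars replicate 2 and dark bars genes with a peak of each library. The bars for all histone genes reach 89.6%, 80.6% and 80.6%, and those for all protein-coding genes 46.1%, 37.5% and 35.8%.

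Peaks at histone genes also had high fold enrichment. The strongest promoter peak had a median fold of 13.4 over the 60 bound histone genes in replicate 1, against 6.34 over the 10025 bound protein-coding genes. In replicate 2 the medians were 7.70 over 54 histone genes and 5.69 over 8162 protein-coding genes. Of the 60 histone genes with a peak in replicate 1, 45 stood at or above the 90th percentile of bound genes, and 18 of 54 did so in replicate 2. A peak shared by neighbours is counted for each of them, so these are not counts of separate peaks. Hist1h1t, for one, is counted in replicate 1 through a Hist1h4c peak with its summit 2694 bp from the Hist1h1t TSS. Each list was scaled to its own background, so a fold of one list and a fold of the other are given side by side and are not on one scale.

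Ordered by the lower fold of the libraries, which serves only to choose the genes named, the spacer of Hist1h2ae and Hist1h2bg, an H2A and an H2B gene on chromosome 13, and the H4 gene Hist1h4h came first with equal values. The spacer peak reached 23.3-fold in replicate 1 and 14.4-fold in replicate 2, with −log10 q values of 94.4 and 35.9. The replicate 2 summit lay 81 bp upstream of the Hist1h2ae TSS, inside the spacer printed first, whereas that of replicate 1 lay 35 bp inside Hist1h2ae. Both summits were thus within 116 bp of each other.

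H4 genes filled many of the first places. Hist1h4h had folds of 19.8 in replicate 1 and 14.4 in replicate 2, with summits 69 bp upstream and 12 bp downstream of its TSS. Hist1h4c had 20.8 and 12.7, with summits 54 and 28 bp upstream. Hist2h4, the H4 gene of the HIST2 cluster, had 21.1 and 11.4, with summits 44 and 185 bp upstream. Each of these peaks lay at the H4 gene's own start in both libraries. Hist1h4i had 14.5 and 11.05, Hist1h4d had 19.8 and 9.04, and Hist4h4, the only gene of its cluster, had 12.4 and 7.70. The summits of Hist1h4a lay farther apart. It had 12.2 in replicate 1 with a summit 5 bp upstream of the TSS, and 14.4 in replicate 2 with a summit 457 bp upstream. H4 genes spread widely, for Hist1h4j had folds of 5.84 and 3.35 and Hist1h4k 6.34 and 5.02, both below the median of bound histone genes in each list.

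Among H3 genes, Hist1h3c shared its strongest peak with the H2B gene Hist1h2bb, at 20.6 in replicate 1 and 9.04 in replicate 2. Hist1h3f shared one with Hist1h2bh at 18.01 and 9.37. Hist1h3e, whose promoter is printed above, had 17.3 and 9.37, and Hist1h3h had 9.39 and 9.37. The strongest summits lay 1020 and 1039 bp upstream of the Hist1h3c TSS and 835 and 797 bp upstream of that of Hist1h3h. Over all bound H3 genes the folds ran over 3.81 to 20.6 in replicate 1 (n = 12) and 4.35 to 14.4 in replicate 2 (n = 10). Hist1h3a had values of 14.2 and 14.4, but its replicate 2 peak was the one that also served Hist1h4a, and the replicate 2 peak nearest to its own TSS had a fold of 4.69. Hist1h3i reached 14.5 and 7.36.

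Several other H2A and H2B genes with high folds were again joined by spacers. Hist1h2ac and Hist1h2bc shared a peak of 21.4 in replicate 1 and 9.71 in replicate 2. Hist1h2bf and Hist1h2ad shared one of 16.2 and 10.04. Hist1h2ak and Hist1h2bn shared one of 15.5 and 8.37. In these 3 spacers the strongest summits of the libraries lay 75, 8 and 3 bp apart. Hist1h2bl and Hist1h2ai had 13.0 in replicate 1 from their spacer and 9.37 in replicate 2 from the region that they share with Hist1h3h. Hist1h2be, which has 2 annotated TSSs and shares no such spacer, reached 14.6 and 7.70. The 3 HIST2 genes Hist2h2ab, Hist2h2ac and Hist2h2be shared a peak of 13.95 and 7.36, and of these Hist2h2ac and Hist2h2be are joined by a spacer.

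**Figure D2:**
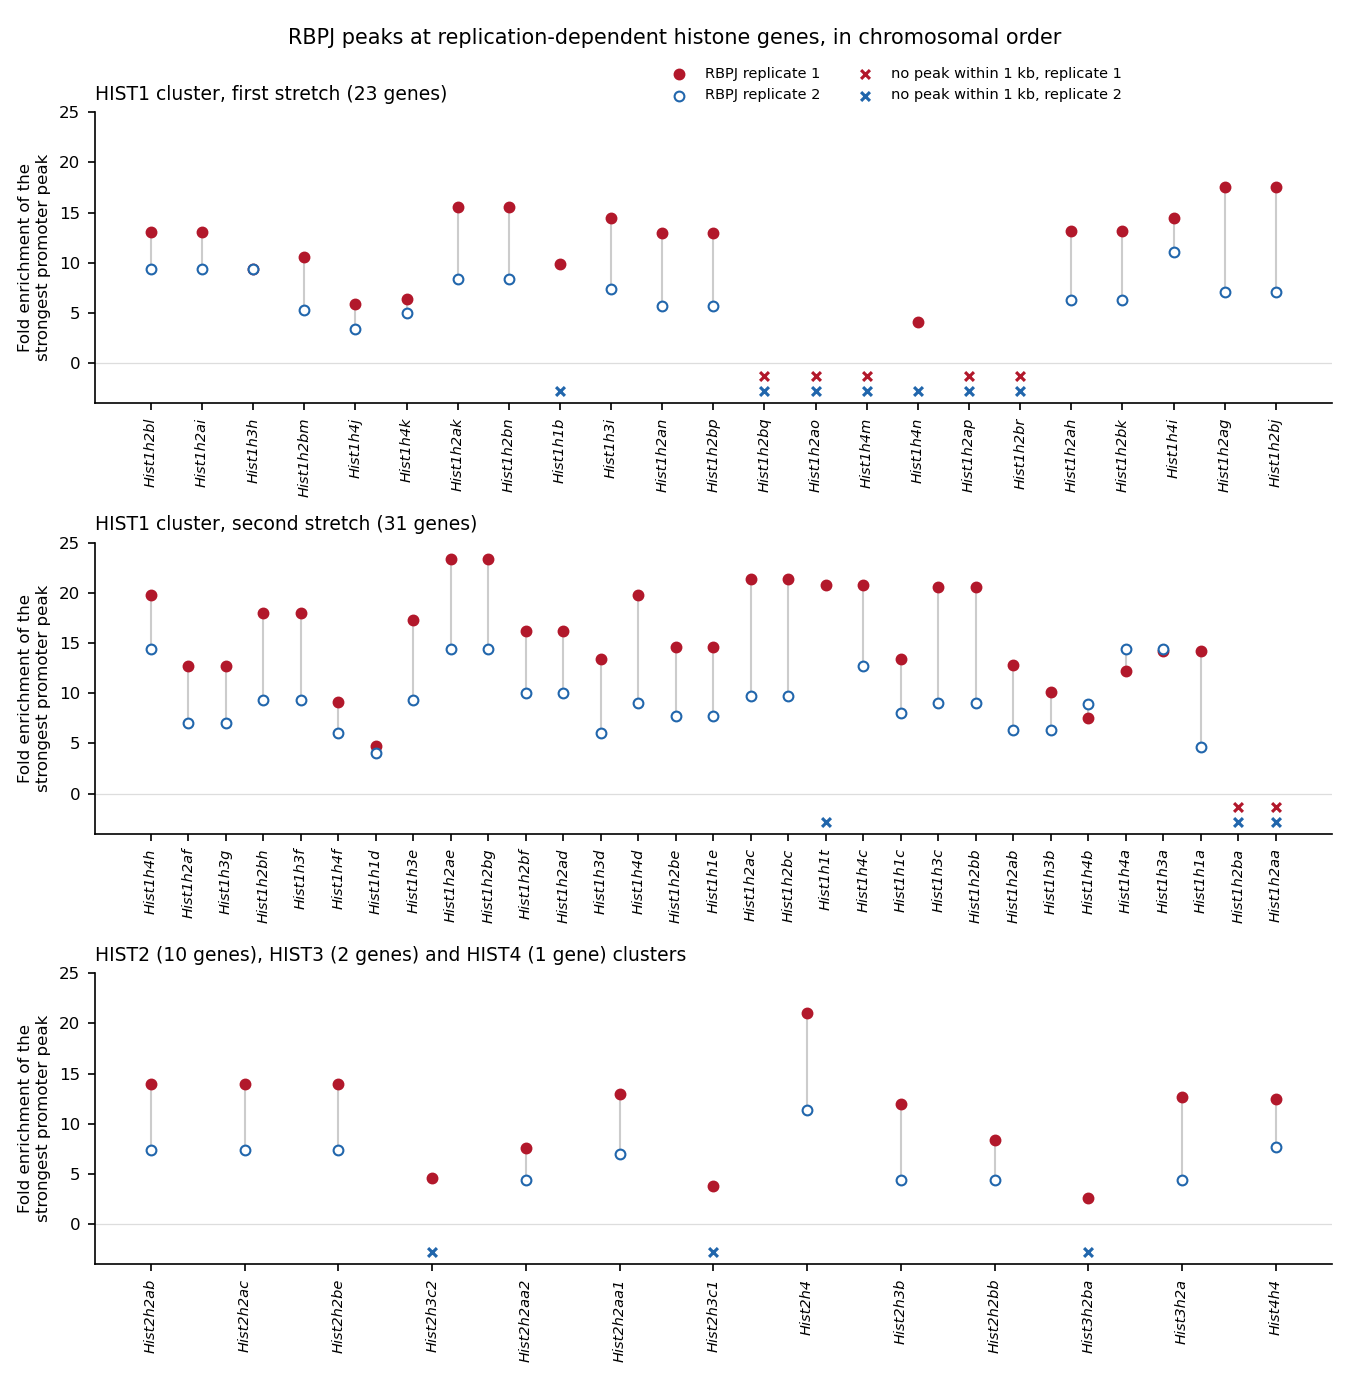
Fold enrichment of the strongest peak within 1 kb of a TSS for each of the 67 histone genes, in chromosomal order, with the HIST1 cluster as 2 stretches and the other clusters in the bottom panel. Filled red points are replicate 1, open blue points replicate 2, grey lines join the libraries of a gene, and crosses below 0 mark the absence of a peak and carry no value. Hist1h2ae and Hist1h2bg are highest at 23.3 and 14.4, and crosses of both libraries stand at 7 genes, 5 of them next to each other but for Hist1h4n in the first HIST1 stretch.

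In 10 of the 54 genes with a peak of each library in replicate 1, and in 16 in replicate 2, the strongest peak in the window was not the one with the summit nearest to the TSS. Both core histone genes and H1 genes were among them. Hist1h1c had folds of 13.4 and 8.03, but these belonged to summits 1442 and 847 bp into the gene, and the replicate 1 summit nearest its TSS, 108 bp upstream, had a fold of 11.4. Hist1h1e had 14.6 and 7.70 from the peak it shares with Hist1h2be, and its nearest summits had 7.87 and 6.02. Hist1h1a had 14.2 in replicate 1 from the peak of Hist1h3a, 1158 bp upstream. In replicate 2 its window held equal folds of 4.69 at a Hist1h3a peak, 1181 bp upstream, and at 35 bp inside Hist1h1a. Hist1h1d, whose annotated TSS in GENCODE lies 1770 bp upstream of that in RefSeq, had 4.73 and 4.02. Peaks of each library at chr13:23555696-23557018, with folds of up to 8.88 and 4.59, overlapped the RefSeq gene. They lay outside the window of the GENCODE TSS and are not in these values. The strongest peaks of Hist1h1e and Hist1h1a were thus also peaks of a neighbouring histone gene, although that of Hist1h1a in replicate 2 was tied with another.

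With the peak whose summit lay nearest to a TSS in place of the strongest, the median fold of H1 genes was 5.96 (n = 6) in replicate 1 and 5.19 (n = 4) in replicate 2. The median over all bound protein-coding genes was 5.58 and 5.36 by this measure. That of H2A genes was 13.0 and 6.27, of H2B genes 13.95 and 6.65, of H3 genes 13.1 and 6.02 and of H4 genes 12.3 and 9.04. Over all bound histone genes it was 13.0 and 6.32. The measure does not remove every peak of a neighbour. Hist1h1a still had 14.2 in replicate 1 from the Hist1h3a peak with its summit 1158 bp upstream, as no replicate 1 summit lay in its window.

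Since genes share peaks, the binding was also counted as regions. Peaks of either list that overlapped were joined, and 59 of the joined (merged) regions that held a peak of each library lay within 1 kb of a histone TSS. They stood at 56 histone genes (83.6%), against 33.7% of all protein-coding genes. Those genes include Hist1h1b and Hist1h1t, which had no replicate 2 peak within 1 kb. The nearest replicate 2 peak edge lay 1366 and 1603 bp from their TSSs. Of the 59 regions, 32 served 2 or more histone genes and 6 served 3 or more. One region on chromosome 13 between 23571749 and 23573837 lay within reach of Hist1h2ae, Hist1h2bg, Hist1h2bf and Hist1h2ad. The regions at histone genes had a median width of 959 bp, against 593 bp over all 25454 merged regions of the genome. The strongest summits of the libraries lay within 200 bp of each other in 47 of the 59 regions.

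The libraries ranked the histone regions in a similar order. Across the 59 regions the fold values of the libraries had a Spearman correlation of 0.74 and a Pearson correlation of 0.74, given as a description since regions share libraries and neighbours. Over all merged regions the Spearman correlation was 0.55. The replicate 2 values took 30 distinct levels over the 59 regions, so the same fold recurs at several genes.

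Summits stood just upstream of the genes. The summit nearest to a TSS lay at a median of −94 bp in replicate 1 and −95 bp in replicate 2 for histone genes, negative values being upstream, against −81 and −54 bp for all bound genes. It fell in the 300 bp upstream of the TSS in 75% of bound histone genes in replicate 1, against 57.1% of all bound genes. In replicate 2 the shares were 75.9% and 53.0%. The annotated TSS was the first base of the start codon in 13 histone genes, so distances there run from the coding sequence and not from a mapped transcript start.

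Head-to-head pairs showed the same position from both sides. The clusters held 13 pairs of histone genes that start in opposite directions less than 1 kb apart, 12 of them H2A with H2B. The 12 spacers were 176 to 306 bp long with a median of 259.5 bp. A summit of each library lay between the TSSs in 8 of the 12. The Hist1h2ac/Hist1h2bc spacer had summits of 21.4-fold in replicate 1 and 9.71-fold in replicate 2. The Hist1h2ag/Hist1h2bj spacer had 17.5 and 7.03. In the Hist1h2bf/Hist1h2ad spacer, 185 bp long, the summits lay 94 and 86 bp from the H2B TSS and so close to the middle. The spacers Hist1h2bq/Hist1h2ao, Hist1h2ap/Hist1h2br and Hist1h2ba/Hist1h2aa had no peak.

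Peak cover fell away inside the genes and came back near or past the end of a typical one. At 20 bp upstream of the TSS, 77.6% of histone genes in replicate 1 and 62.7% in replicate 2 had the base inside a peak, against 28.2% and 21.4% of all protein-coding genes. At 280 bp inside the gene the histone shares were 11.9% and 10.4%, against 10.3% and 8.44%. At 580 bp they were 64.2% and 34.3%, against 13.2% and 7.18%. The median length of the histone genes was 539 bp, so the last position lies at or past the end of a typical member.

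This trough coincided with repeated sequence. A stretch of 150 bases, the read length of the RBPJ libraries, was counted as unique when it occurs once in the genome. At 280 bp inside the gene 55.2% of histone genes had a unique stretch, compared with 94.0% at 20 bp upstream and 86.6% at 580 bp. In the 20 histone genes whose first 400 bases were wholly unique, peaks of replicate 1 covered on average 74.7% of the 300 bp upstream, 47.1% of the first 400 bp and 50.2% of the stretch from 500 to 1000 bp. In the 40 genes with a partly unique start the same averages were 89.98%, 25.5% and 71.3%. In replicate 2 they were 57.7%, 30.5% and 28.2% in the wholly unique genes and 74.2%, 21.9% and 30.3% in the partly unique ones. In genes with a wholly unique start, the cover thus fell past the TSS and stayed near that level from 500 to 1000 bp. In the partly unique ones it fell further and rose again. The groups also differ in make-up, as all 6 H1 genes have a wholly unique start. Several genes of that group are longer than 1000 bp, among them Hist1h2be (37455 bp) and Hist1h1d (7425 bp), so the last stretch lies inside them. The authors kept only reads of high mapping quality. What part repeated sequence has in the trough was not tested.

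**Figure D3:**
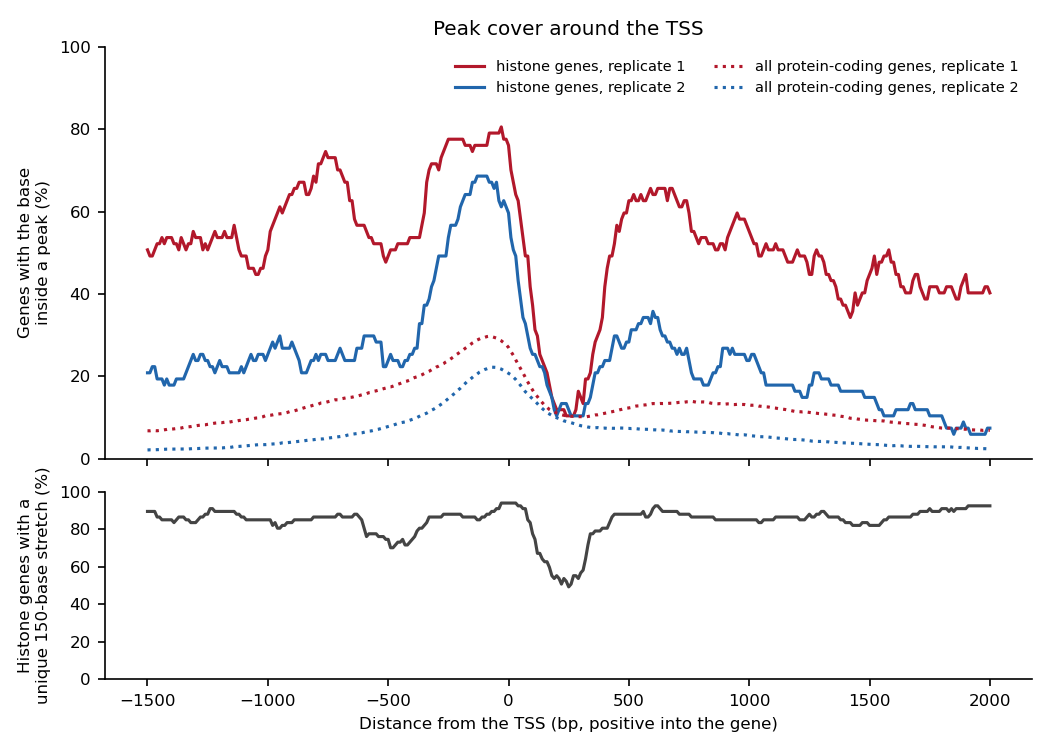
Upper panel, share of genes (%) in which the base at each distance from the TSS lies inside a peak, for the 67 histone genes (solid) and all 21755 protein-coding genes (dotted), in replicate 1 (red) and replicate 2 (blue). Lower panel, share of histone genes (%) in which the 150-base stretch centred on that distance occurs once in the genome. At 280 bp the solid lines reach 11.9% and 10.4% and the lower line 55.2%.

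The 7 histone genes without a peak fell into 2 places. Hist1h2bq, Hist1h2ao, Hist1h4m, Hist1h2ap and Hist1h2br stand in a duplicated segment of the HIST1 cluster. In 4 of them 0% of the 150-base stretches in the window were unique, and in Hist1h4m 23.7% were. The H4 gene in the same segment, Hist1h4n, had 30.1% unique stretches and a single replicate 1 peak of fold 4.06, 659 bp downstream of the TSS and past the gene's end. Among the 54 genes with a peak of each library the least unique window had 55.9% and the median 93.0%. Within 3 kb, a replicate 1 peak lay 1899 bp from the Hist1h2ap TSS and 2135 bp from that of Hist1h2br. Whether reads from these copies were lost in mapping was not tested.

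The other place was the testis pair. Hist1h2ba and Hist1h2aa, which encode the testis histones TH2B and TH2A, had no peak although 98.4% of the 150-base stretches in each of their windows were unique. The nearest peak edge to Hist1h2ba lay 48094 bp away in replicate 1 and 40860 bp away in replicate 2. Hist1h1t, the testis H1 gene, had a replicate 1 fold of 20.8, but that peak reaches over from Hist1h4c with its summit 2694 bp from the Hist1h1t TSS, and the nearest summit had a fold of 3.30. The 3 testis genes thus had no peak of replicate 2 within 1 kb.

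The 6 genes with a peak of replicate 1 alone mostly had weak peaks away from the TSS. Hist3h2ba had a fold of 2.64 with a summit 915 bp upstream. Hist2h3c2 had 4.59 with a summit 1058 bp downstream, and Hist2h3c1 had 3.81 with one 828 bp downstream. Hist1h1b had a replicate 1 fold of 9.89 with a summit 1162 bp from its TSS, and a nearer summit 94 bp upstream with a fold of 4.06. The windows of Hist2h3c1 and Hist2h3c2, a duplicated pair, were 33.4% and 34.4% unique.

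The clusters as a whole were dense in peaks. The HIST1 genes fell into 2 stretches, chr13:21714763-22044676 with 23 genes and chr13:23530050-23935851 with 31, both counted with 1 kb added at the ends. They held 31 and 42 merged regions, or 9.40 and 10.3 per 100 kb. The HIST2 stretch, chr3:96218865-96271132, held 11, or 21.05 per 100 kb, against 0.966 per 100 kb over the genome. Of the 86 merged regions in all cluster stretches, 59 lay at histone TSSs. Of the 11 other protein-coding genes in these stretches 3 (27.3%) had a promoter peak of each library, against 35.8% of all protein-coding genes. They were Trim17, Hfe and Bola1.

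Of the 27 merged regions elsewhere in the stretches, 10 lay within 500 bp of a tRNA gene in the RefSeq annotation and 5 overlapped the annotated body of a histone gene. The widest of those at tRNA genes, chr13:22020254-22023406, had folds of 13.3 and 10.04. Of the 32 tRNA genes in the stretches 13 (40.6%) had a merged region within 500 bp, and of all 408 tRNA genes 194 (47.5%) did.

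The share of histone promoters with the RBPJ core was close to that of all promoters, while several boxes of histone promoters were far more frequent than in the table as a whole. RefSeq promoter sequences (GRCm38.p6), 250 bases before to 50 after the TSS, were matched for 62 of the 67 genes through their older symbols, which left out Hist1h2bc, Hist1h3a, Hist1h3f, Hist2h2be and Hist2h4. The core TGGGAA, on either strand as for every motif here, stood in 14 of 62 histone promoters (22.6%) and in 25.5% of the 27025 promoters of the table. The longer GTGGGAA, which contains it, stood in 3.23% and 6.39%. Around the strongest summits, within 100 bp, TGGGAA was found in 15.3% of the 59 histone regions in replicate 1 and 16.9% in replicate 2, against 18.6% and 19.3% of all merged regions. GTGGGAA was found there in 2 histone regions (3.39%) in replicate 1, against 4.53% of all merged regions, and in 6 (10.2%) in replicate 2, against 4.97%.

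The CCAAT box, the binding site of NF-Y, stood in 53 of 62 histone promoters (85.5%), against 37.9% of all promoters. It was present in 50 of 50 H1, H2A, H2B and H3 promoters and in 3 of 12 H4 promoters. H4 promoters instead held GGTCC, in 11 of 12, while it stood in 15 of 50 promoters of the other types and in 45.4% of all promoters. TATAAA was found in 56.5% of histone promoters and 14.2% of all. The octamer ATTTGCAT, bound by POU2F1, was found in 20.97% and 1.75%, all of it in 7 of 18 H2A and 6 of 16 H2B promoters. An E2F motif, TTTNGCGC, was found in 22.6% and 1.38%, again in H2A and H2B promoters alone, 7 of each. Paired H2A and H2B genes share part of these sequences, and the counts are not of independent promoters.

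Among motifs of factors known from macrophages, the only ETS core searched was rare in histone promoters and the C/EBP motif was not. GAGGAAG, a core of PU.1 and other ETS factors, stood in 1.61% of histone promoters and 13.5% of all. TGANTCA, the AP-1 motif, stood in 4.84% and 7.93%. TTGCNNAA, read by C/EBP factors, stood in 19.4% and 10.8%. The 12 histone promoters with it all had a peak of each library, as did 49 of the 62 histone promoters searched. The GC box GGGCGG stood in 37.1% and 35.9%. Within 100 bp of the strongest summits TTGCNNAA stood in 16.9% of histone regions in each library, against 14.3% of all merged regions in replicate 1 and 13.2% in replicate 2, a smaller difference than over promoters. CCAAT lay there in 59.3% of histone regions in each library, against 27.3% of all merged regions in replicate 1 and 25.8% in replicate 2. In every comparison around summits the merged regions come from the whole genome, whereas the histone regions all lie within 1 kb of a TSS.

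Some boxes were as frequent in histone promoters with a peak of each library as in those without a peak, and others were not. CCAAT stood in 42 of 49 promoters with a peak of each library and in 6 of 7 without a peak. TGGGAA stood in 9 of 49 and in 5 of 7, and TTGCNNAA in 12 of 49 and in 0 of 7. The 7 without a peak include the duplicated segment, whose copies share their sequence.

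**Figure D4:**
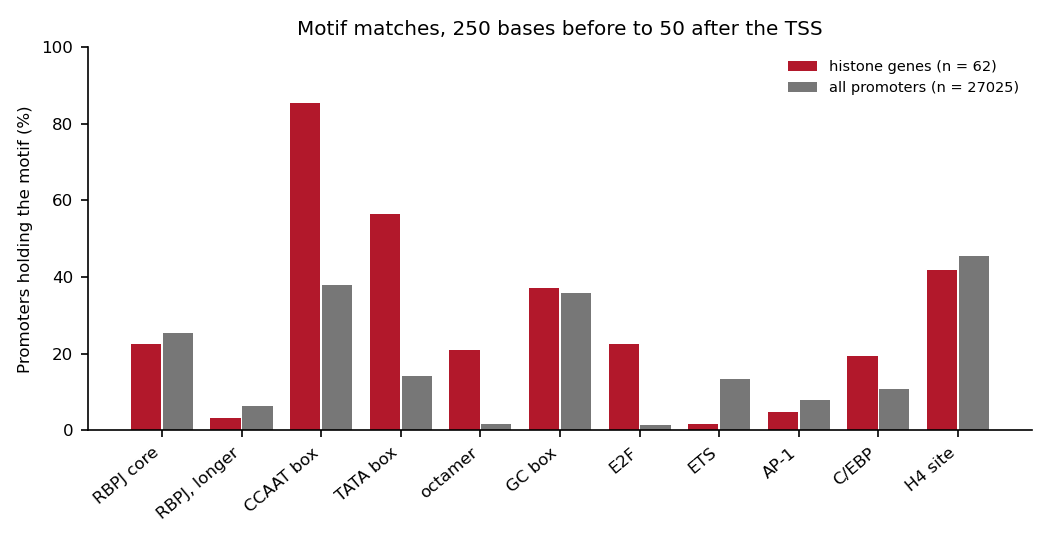
Share of promoters (%) that hold each motif on either strand, from 250 bases before to 50 after the TSS, for 62 histone genes (red) and all 27025 promoters of the RefSeq table (grey). The CCAAT box stands at 85.5% in histone promoters and 37.9% in all, and the RBPJ core at 22.6% and 25.5%.

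Genes that act beside the clustered histones were mostly bound too. Of 11 replacement histone genes, which are expressed outside S phase, 8 (72.7%) had a promoter peak of each library, against 35.8% of all protein-coding genes. H3f3b, a gene for the replacement form of H3, had folds of 17.8 and 10.04, and H2afj, an H2A variant gene, had 10.1 and 10.4. H2afz, which encodes an H2A variant found at active promoters, had 9.64 and 9.37, and H2afx, which encodes the variant phosphorylated at DNA breaks, had 13.95 and 8.70. The medians of the bound replacement genes were 10.1 in replicate 1 and 8.20 in replicate 2, against 6.34 and 5.69 over all bound protein-coding genes.

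Of 19 factors of histone gene expression and mRNA 3′ end processing, 17 (89.5%) had a peak of each library, against 35.8% of all protein-coding genes. They included Npat, the coactivator of histone loci, at 6.09 and 4.69, Casp8ap2, a component of the histone locus body, at 8.12 and 9.04, and Nfya, a subunit of NF-Y, at 11.9 and 7.70. Slbp had 6.85 and 5.36. Of 12 histone chaperone genes 10 (83.3%) had a peak of each library, with Rbbp4 at 9.39 and 8.70, and of 16 S phase genes 11 (68.8%) did, with Mcm7 at 13.2 and 8.70 and Pcna at 8.88 and 8.70. The median folds of these 3 lists were 7.36, 7.10 and 7.10 in replicate 1 and 5.36, 5.02 and 5.02 in replicate 2, where the clustered histone genes had 13.4 and 7.70. Against all bound protein-coding genes the 3 medians were higher in replicate 1 and lower in replicate 2. No RNA was measured in these samples, so the lists describe binding and not expression.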

How the data were processed

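RBPJ peak lists of 2 HT-ChIPmentation libraries from AMs were analysed. The submitters' processing notes name bcl2fastq (version 2.20.0.422), CASAVA, Cutadapt, Bowtie2, SAMtools and MACS3 and the mm10 genome. The authors called peaks in each library against input at a q threshold of 0.05. Each deposited list gives per peak the fold enrichment, a ratio to background, and the −log10 q of the authors' peak caller. These values rank peaks within a list. Deposited −log10 p and display scores were not used, and the Input libraries were used here in no other way than as the background the authors called peaks against. The lists hold no read counts and the sequencing totals given with the study were not used here, so no interval was computed, and precision is limited by having 2 libraries.

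No peak lay beyond a chromosome end of GRCm38, the assembly that mm10 names. Gene models were GENCODE M21 basic transcripts, and 196 protein-coding genes on other chromosomes were not tested. A promoter peak overlapped 1 kb either side of a TSS. Peaks of either list that overlapped were joined, and joined regions with a peak of each library were kept as merged regions. Uniqueness was the share of 150-base stretches found once in the genome on either strand. The software was numba 0.67.0, matplotlib 3.10.9, pandas 2.3.3 and numpy 2.4.6 under Python 3.11.15. The assignment of peaks and the counting of copies were checked on simulated data.

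The series has no second condition, so nothing was tested, and the main counts and medians are set beside the same values over all protein-coding genes. The members, the gene lists and the motifs were chosen with earlier results of these data known. Genes with a promoter peak of each library were named by the lower fold of the 2 lists, up to 30, and those with a peak in 1 list or none in groups. The alternatives were 11, namely other windows, thresholds, transcripts, gene sets and peak matching, and leaving out each library.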

Additional observations from a re-analysis of the deposited data

How the results depend on the processing

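The 6 values recomputed under the alternatives were the histone genes with a promoter peak of each library, of replicate 1 and of replicate 2, the merged regions at histone genes and the 2 median folds. Counts stayed within 1.5 times of the reported ones under every alternative run. The genes with a peak of each library numbered 44 of 54 (HIST1 genes only) to 58 of 67 (windows of 3 kb). With 1 library left out, the count is that of the other list alone. It was 54 without replicate 1 and 60 without replicate 2. With a −log10 q of at least 5 in both lists they numbered 47 and the merged regions 42, and with summits of the libraries within 200 bp of each other 51 and 52. Among the 59 histone genes whose windows were at least 50% unique, 54 remained, or 91.5%. The share of all protein-coding genes beside it, 35.8%, was not filtered for uniqueness. Over the 9 alternatives with both lists the share of histone genes with a peak of each library was 70.1% to 91.5%, and that of all protein-coding genes 24.9% to 39.3%. The median folds ranged over 13.0 to 14.2 in replicate 1 and 7.03 to 8.37 in replicate 2. No paired analysis was possible because no groups of samples were compared. With 2 libraries, peak calls that differ between them cannot be assigned to biology, depth or antibody recovery, and windows of repeated sequence cannot show the absence of binding.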
